A study of Equus caballus with 19 samples.

Results

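Equine tenocytes, the resident cells of tendon, were taken from the superficial digital flexor tendon of Thoroughbred horses and grown in 3D gels of bovine type I collagen, and the question here is which responses to IL-1β remained when its receptor antagonist was present. The comparison sets 3 libraries of cells given 1 nM IL-1β together with 100 ng/ml of the IL-1 receptor antagonist protein (IL1Ra) against 3 unstimulated control libraries, so 6 of the 19 libraries of the series. Cells were wild type and adult, media were renewed every few days, and RNA was sequenced after 14 days. The libraries came from the second sequencing batch, in which each of 3 tenocyte lines gave 1 control, 1 IL-1β and 1 IL-1β + IL1Ra library. The name of each column ties it to a line, and the lines are numbered 1 to 3 throughout. Values of 3 libraries are always given in the order line 1, line 2, line 3. No library of IL1Ra alone was analysed here, so an effect of the antagonist itself cannot be told apart from its effect on the IL-1β response.

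IL-1β acts by joining the receptor IL1R1 to its partner IL1RAP on the cell surface. The joined receptors recruit MYD88 and the IRAK kinases and release NF-κB, a family of transcription factors that switches on cytokines, chemokines, acute phase proteins and proteases, together with inhibitors of NF-κB itself. IL1Ra occupies IL1R1 without bringing in the partner and so competes with the cytokine. In tendon, IL-1β is known to raise matrix-degrading enzymes and to lower the genes of the collagenous matrix.

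Of the 29196 gene names in the table, 16705 had at least 10 normalised counts in at least 3 of the 9 second-batch libraries and were tested. The deposited values are DESeq2-normalised counts, and they summed to 24964149 to 28652335 per control library and 26699718 to 29958413 per IL-1β + IL1Ra library. TNF, picked for this, lay just inside the filter, with 16.4 normalised counts in the IL-1β + IL1Ra library of line 2 and 74.3 and 21.1 in the IL-1β libraries of lines 2 and 3. IL1RN, the horse's own gene for the antagonist, lay outside it with at most 2.15. The test was limma on log2(normalised count + 1) in a model with a term for each tenocyte line, a block, and p-values were adjusted by the Benjamini-Hochberg method over all genes tested. A gene is called DE (differentially expressed) at an adjusted p under 0.05 and a log2-fold change of at least 1 in either direction. The scale understates changes of genes with few counts. Of the tendon markers, TNMD did not exceed 1.00 normalised count, whereas COL1A1 had at least 40715 in every library. Some tendon markers differed widely between the lines in control, with MKX at 4059, 151 and 11.5 and THBS4 at 632, 14.1 and 16.4. DCN differed less, at 55627, 29947 and 42147. The lymphocyte gene CD79A and the epithelial gene EPCAM were at 0 in all 9 libraries. Other such markers were present, as the epithelial genes KRT8 and CDH1 reached 5.29 and 107 normalised counts. The adipocyte gene PLIN1 reached 8.06, and ADIPOQ ran from 43.1 to 6067. The summed level of 7 leukocyte markers ran from 230 to 1268 in the control and from 730 to 2048 in the IL-1β + IL1Ra libraries, and CD68 and CD14 made up most of it, while PTPRC, which marks leukocytes in general, stayed at or below 6.46. The part of these markers in the results below was not tested.

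With IL-1β + IL1Ra, 42 of the 16705 genes were DE against control (0.251%), of which 35 rose (0.21%) and 7 fell (0.0419%). All 42 moved the same way in 3 of 3 lines, and in 38 of them the control and treated libraries did not overlap. Over all genes tested, every treated library lay above every control library in 5.79% and below in 5.96%. The 42 were picked by a test on these same libraries that favours such agreement, so neither count is further support. The genes that stayed raised included IL6, the chemokines CXCL2, CXCL6 and MIP-2BETA, the acute phase gene SAA1 and the arginine transporter SLC7A2. TNFAIP3, NFKBIZ and ZC3H12A of the NF-κB pathway stayed raised as well. The genes that stayed lowered included PRG4, which encodes lubricin. In all, 1072 genes were higher and 1161 lower at an unadjusted p under 0.05, the DE genes among them (6.42% and 6.95% of genes tested). The counts of the gene lists below at that level are to be read beside these shares. IL-1β alone made 865 genes DE in the same lines against the same control libraries (5.18%), 432 higher (2.59%) and 433 lower (2.59%), a count that fell to 57 without the line as a block, to 0 without line 2 and to 11 without line 3 (2963 and 1945 at an unadjusted p under 0.05). For IL-1β + IL1Ra, 2 genes remained DE without the block (0.012%), LOC100060539 and LOC111773191. The count also rested on single lines, at 414 without line 1 and 0 without line 2 or line 3 (1410 and 1011 genes at an unadjusted p under 0.05). All 42 kept their direction under each of these, but these fits could not have turned it. The log2-fold changes are the same without the block, and each of the 42 moved the same way in every line.

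**Figure D1:**
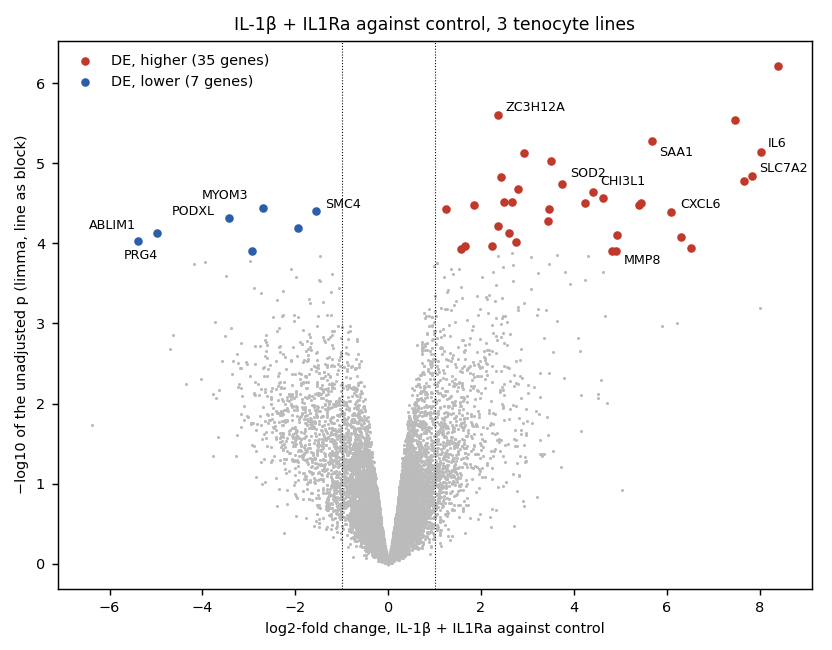
Each point is 1 of 16705 genes, with its log2-fold change between IL-1β + IL1Ra and control on the horizontal axis and −log10 of its unadjusted p from limma on the vertical axis. The 35 DE genes that rose (red) lie between log2-fold changes of 1.25 and 8.39, and the 7 that fell (blue) between −5.38 and −1.56.

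IL6, a cytokine that drives the acute phase response, stood at 127, 663 and 216 normalised counts in the control libraries. With IL-1β + IL1Ra it stood at 13776, 201720 and 119246, and with IL-1β alone at 168090, 136543 and 137101. With the antagonist IL6 lay well below its IL-1β level in line 1, above it in line 2 and slightly below it in line 3. The log2-fold change against control was 8.03 (SE, the standard error, 0.72, limma adjusted p = 0.0210), beside 9.11 for IL-1β alone, and the 2 treated conditions differed by −1.08 (SE 0.72). CSF3, the granulocyte colony-stimulating factor, had 28.2, 39.7 and 76.9 normalised counts in control and 197, 112805 and 71213 with IL-1β + IL1Ra. Its level with IL-1β alone was 19694, 330466 and 221118. Line 1 again stood lowest, and CSF3 missed the threshold with a log2-fold change of 8.01 (SE 1.42, limma adjusted p = 0.102). Among 14 tested genes of the IL-6 family and colony-stimulating factors, 1 was DE (IL6) and 5 were higher at an unadjusted p under 0.05, with a median log2-fold change of 0.66 against 0.0095 over all genes tested.

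Chemokines, the secreted proteins that draw leukocytes into tissue, were the list with the highest median. Of 20 tested members 3 were DE, 11 were higher at an unadjusted p under 0.05, none was lower at that level, and the median log2-fold change was 2.21. In 7 of the 20 every treated library lay above every control library, beside 5.79% of all genes tested. CXCL6, which attracts neutrophils, had 293, 4138 and 2905 normalised counts in control and 9204, 269776 and 461348 with IL-1β + IL1Ra. IL-1β alone gave 371137, 1096920 and 1319460, so every line was intermediate. CXCL6 rose by a log2-fold change of 6.10 (SE 0.70, limma adjusted p = 0.0267), CXCL2 by 6.52 (0.88, 0.0496) and MIP-2BETA by 5.45 (0.61, 0.0267), and with IL-1β alone the values were 9.06, 11.05 and 9.28. These neutrophil chemokines belong to a family of similar genes among which transcript assignment can split reads, so each value is uncertain. CXCL8, chosen after its values were seen, had 28.4, 250 and 115 normalised counts in control and 27.8, 20896 and 25689 with IL-1β + IL1Ra. It lay at its control level in line 1 and far above control in lines 2 and 3, with a log2-fold change of 4.72 (SE 1.37, limma adjusted p = 0.221). The median of the list within a line was 1.21, 4.12 and 2.49, and 10 of the 20 chemokines were DE without line 1 and 0 without line 2 or line 3. Without line 2 the list median was 1.4. At a pseudocount of 5, a filter of 50 in 3 libraries, TMM rescaling or quantile normalisation, 2 chemokines were DE. With a filter of any value above 0, 4 were DE. None was DE without the block, without the mean-variance trend or with only the 2 conditions fitted. The list median was 1.34 with IL-1β alone, below that with the antagonist, and 3 members were higher (4.71% of all genes) and 6 lower (3.68%) with the antagonist than with IL-1β alone at an unadjusted p under 0.05.

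The acute phase, alarmin and complement list had 18 tested members, of which 2 were DE, 10 were higher and 1 lower at an unadjusted p under 0.05, with a median log2-fold change of 1.60. With IL-1β alone the median was 0.81. Against IL-1β alone, 6 members were higher with the antagonist and 2 lower at that level (4.71% and 3.68% of all genes). SAA1, serum amyloid A, is a main acute phase protein of the horse. It had 4617, 769 and 579 normalised counts in control and 125855, 54973 and 39747 with IL-1β + IL1Ra. IL-1β alone gave 337738, 128575 and 277600, and the antagonist values lay between the other conditions in each line. SAA1 rose by a log2-fold change of 5.67 (SE 0.49, limma adjusted p = 0.0210). TNFAIP6, a secreted hyaluronan-binding protein that limits inflammation, had 2478, 1821 and 1788 in control and 6736, 14771 and 11241 with IL-1β + IL1Ra, a log2-fold change of 2.37 (SE 0.29, limma adjusted p = 0.0358). LOC100056936 and LOC100056698 rose by 7.66 and 7.48 (limma adjusted p = 0.0267 and 0.0161), and the RefSeq gene order of a horse assembly newer than that of the files puts LOC100056698 next to SAA1 and an SAA gene within 4 coding genes of LOC100056936. Reads may be split among such neighbours. These LOC genes, and those below, were named after their values were seen.

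NF-κB subunits and feedback genes included 4 DE genes among 18, and 12 were higher at an unadjusted p under 0.05. Their median log2-fold change was 0.94, and it was alike in the lines, at 0.74, 0.88 and 0.90. With IL-1β alone the median was 1.54. ZC3H12A encodes an RNase that cuts cytokine mRNAs, and it had 458, 907 and 1031 normalised counts in control against 1902, 5559 and 5538 with IL-1β + IL1Ra. It rose by a log2-fold change of 2.36 (SE 0.18, limma adjusted p = 0.0161). TNFAIP3, the ubiquitin-editing inhibitor A20, had 206, 356 and 193 in control and 804, 2706 and 2190 with IL-1β + IL1Ra, and reached 3539, 8949 and 8889 with IL-1β alone. Its log2-fold change of 2.79 (SE 0.29, limma adjusted p = 0.0267) compares with 4.75 for IL-1β alone. NFKBIZ, a nuclear IκB protein needed for IL6 transcription, stood at 464, 1162 and 922 in control, at 2425, 7198 and 4434 with the antagonist and at 4597, 5982 and 4777 without it. NFKBIZ was thus near its IL-1β level in lines 2 and 3, with a log2-fold change of 2.43 (SE 0.24, limma adjusted p = 0.0267) beside 2.68. IKBKE, a kinase of the same pathway, rose by 1.25 (SE 0.14, limma adjusted p = 0.0267) beside 2.05 for IL-1β alone. The 2 comparisons share their control libraries, so such pairs of values are not independent.

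**Figure D2:**
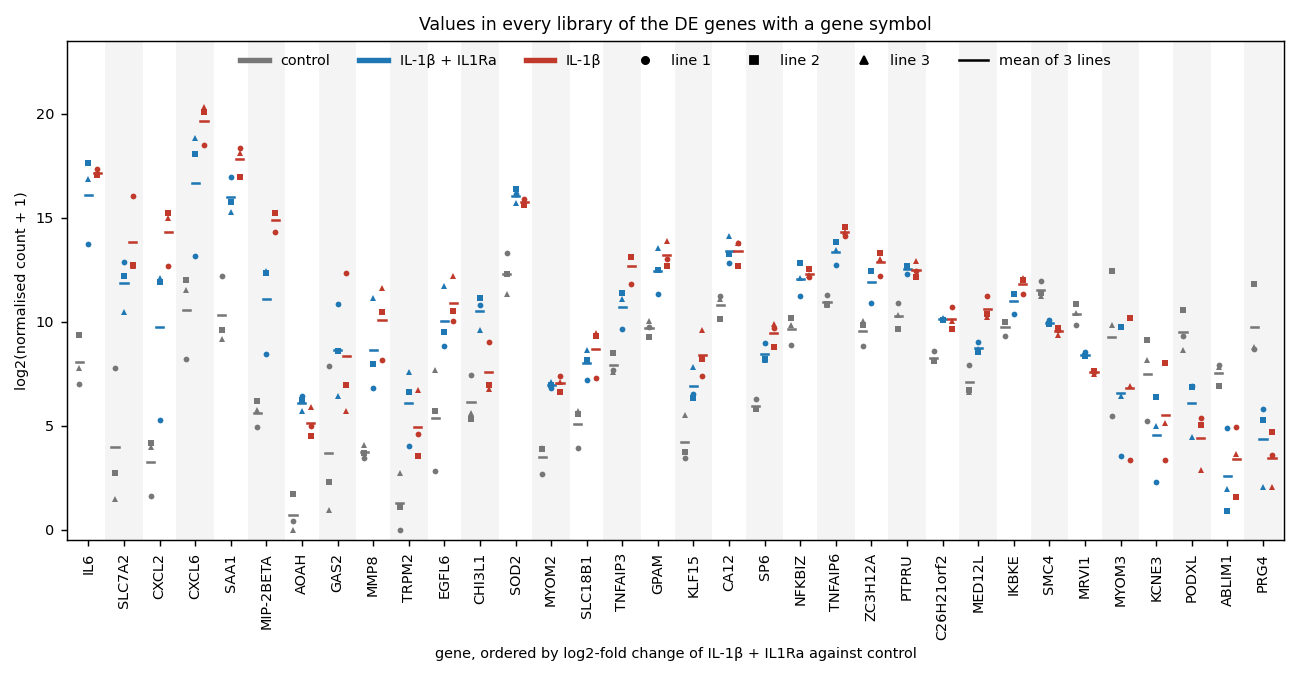
The vertical axis gives log2(normalised count + 1) in every library for the DE genes with a gene symbol, ordered by log2-fold change, with control in grey, IL-1β + IL1Ra in blue, IL-1β alone in red, a symbol per line and a bar at the mean of 3 lines. IL6 stands far above control in each line with the antagonist, CXCL6 lies between control and IL-1β alone, and SOD2 lies at about the same level in both treated conditions.

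None of the receptor genes IL1R1, IL1RAP and IL1R2 was DE. IL1R1 had 2062, 2494 and 5196 normalised counts in control and 2772, 3064 and 4382 with IL-1β + IL1Ra, a log2-fold change of 0.16 (SE 0.20). IL1RAP differed by 0.40 (SE 0.26). IL1R2, the decoy receptor that binds IL-1β without signalling, was low at 1.03, 11.5 and 36.7 in control and 4.00, 48.3 and 83.3 with the antagonist (1.48, SE 0.40, limma adjusted p = 0.195). The IL1B transcript, which the cells can make themselves, was at 2.01, 0 and 0 in control and at 2.93, 48.4 and 12.9 with IL-1β + IL1Ra, against 36.4, 77.5 and 91.8 with IL-1β alone. IL1B lay above 3 normalised counts with the antagonist in lines 2 and 3 only. IL1A was at 0, 81.3 and 136 with the antagonist and 47.8, 1330 and 1422 without it, and neither gene was DE against control (limma adjusted p = 0.206 for IL1B and 0.278 for IL1A). Of 14 tested IL-1 family and receptor genes, 3 were higher at an unadjusted p under 0.05 (IL1R2, IL1B and IL1A) and 0 were DE.

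Among 17 matrix metalloproteinases 1 was DE and 5 were higher at an unadjusted p under 0.05, with a median log2-fold change of 0.42. That median rested on single lines, at 0.073 without line 1, 0.97 without line 2 and −0.013 without line 3. MMP8, the neutrophil collagenase, had 9.92, 12.1 and 15.7 normalised counts in control, 113, 252 and 2264 with IL-1β + IL1Ra and 286, 1395 and 3096 with IL-1β alone. All treated libraries were above all control libraries, and the log2-fold change was 4.91 (SE 0.67, limma adjusted p = 0.0498). MMP8 was not DE at a pseudocount of 5, at a filter of 50 in 3 libraries, with TMM rescaling or with quantile normalisation. MMP13, a collagenase of cartilage and tendon, had 7104, 6038 and 7991 in control and 292668, 8117 and 39639 with IL-1β + IL1Ra. It remained far above control in line 1 and was near control in line 2, and its log2-fold change of 2.70 had a SE of 0.99 (limma adjusted p = 0.304). MMP3, stromelysin, stood at 174, 3785 and 9976 in control and 8532, 14736 and 20010 with the antagonist (2.86, SE 1.01, limma adjusted p = 0.287). MMP3 and MMP13 stood furthest above control in line 1, the line in which CSF3 and CXCL8 stood least above it or not at all. Of 12 ADAMTS proteases 0 were DE, 4 were higher and 3 lower at an unadjusted p under 0.05. ADAMTS4, an aggrecanase, had 295, 524 and 618 in control and 540, 5291 and 4282 with IL-1β + IL1Ra (2.33, SE 0.47, limma adjusted p = 0.132). ADAMTS5, the other main aggrecanase, was at 1988, 2334 and 2825 in control and 4688, 4153 and 7219 with the antagonist (1.14, SE 0.24, limma adjusted p = 0.140). Among the 3 lower, ADAMTS15 had 54.3, 8.54 and 19.1 in control, 9.88, 0 and 3.17 with the antagonist and 46.3, 25.4 and 46.5 with IL-1β alone. Its log2-fold change against control was −2.62 (SE 0.55, limma adjusted p = 0.137), and that of ADAMTS14 was −1.31 (SE 0.39, limma adjusted p = 0.231). Of 11 protease inhibitors 1 was higher at an unadjusted p under 0.05, beside 6.42% of all genes tested. That gene was A2ML1, with 1.86 beside 6.44 for IL-1β alone.

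SOD2, SLC7A2 and AOAH were also DE. SOD2, the mitochondrial superoxide dismutase and a common NF-κB target, had 9965, 5050 and 2595 normalised counts in control and 71038, 83855 and 53976 with IL-1β + IL1Ra. IL-1β alone gave 60650, 49943 and 56468, so SOD2 was not lower with the antagonist in lines 1 and 2. It rose by a log2-fold change of 3.75 (SE 0.39, limma adjusted p = 0.0267), and the treated conditions differed by 0.30 (SE 0.39). SLC7A2, a carrier of arginine and other cationic amino acids, had 217, 5.70 and 1.76 in control, 7374, 4687 and 1417 with IL-1β + IL1Ra and 67866, 6725 and 6546 with IL-1β alone (7.84, SE 0.78, limma adjusted p = 0.0267). Of 18 antioxidant and metal handling genes 1 was DE (SOD2) and 6 were higher at an unadjusted p under 0.05, and the median was 0.63 (0.96 without line 1 and 0.39 without line 3). Of 16 prostaglandin and nitric oxide genes 0 were DE, 9 were higher and 1 lower at an unadjusted p under 0.05, and the median was 0.77. PLA2G2A, the secreted phospholipase that releases fatty acids for prostaglandin synthesis, had 26.6, 60.7 and 0.564 in control and 6783, 539 and 301 with IL-1β + IL1Ra, a log2-fold change of 6.22 with a wide error (1.18, limma adjusted p = 0.116). PTGER4, a prostaglandin E2 receptor, had 107, 196 and 63.3 in control and 291, 823 and 671 with the antagonist (2.30, SE 0.39, limma adjusted p = 0.0906). PTGIS, prostacyclin synthase, was the member that was lower, at 1164, 699 and 619 in control and 672, 47.3 and 36.8 with the antagonist (−2.89, SE 0.79, limma adjusted p = 0.199). AOAH, an enzyme that inactivates bacterial lipopolysaccharide, had 0.332, 2.27 and 0 in control and 85.7, 73.5 and 50.9 with IL-1β + IL1Ra. The control values lay at or under 3 normalised counts, so its fitted log2-fold change of 5.41 (limma adjusted p = 0.0267) depends on the pseudocount.

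CHI3L1, a secreted chitinase-like protein of inflamed joints, had 170, 39.7 and 47.7 normalised counts in control, 1796, 2291 and 781 with IL-1β + IL1Ra and only 525, 124 and 109 with IL-1β alone. Every line was highest with the antagonist, with a log2-fold change of 4.40 against control (SE 0.47, limma adjusted p = 0.0267) beside 1.47 for IL-1β alone, and 2.93 between the treated conditions (SE 0.47, limma adjusted p = 0.166). EGFL6, a secreted protein with EGF repeats, rose by 4.62 and CA12, a membrane carbonic anhydrase, by 2.60, with 7278, 9796 and 18015 normalised counts of CA12 against 2402, 1115 and 2151 in control. MYOM2, a sarcomere protein in muscle, had 5.41, 14.0 and 14.5 in control and 111, 124 and 137 with the antagonist (3.45, SE 0.41, limma adjusted p = 0.0323), a level like that of IL-1β alone at 167, 97.4 and 136. SLC18B1, a polyamine transporter of vesicles, rose by 2.94 (limma adjusted p = 0.0210), TRPM2, a calcium channel opened by oxidative stress, by 4.81 (0.0498), and GAS2, an actin-associated protein, by 4.92 (0.0406). TRPM2 was at most 5.67 normalised counts in control. GAS2 had 236, 3.95 and 0.912 in control and 1825, 389 and 86.6 with the antagonist, so its ranges overlapped. Among the genes named by LOC numbers, LOC100060539 had the largest rise, 8.39 (SE 0.53, limma adjusted p = 0.0101), with 18.2, 3.78 and 3.46 in control and 2170, 2417 and 2940 with IL-1β + IL1Ra. LOC100060539 neighbours LOC100060505, which rose by 4.24 (limma adjusted p = 0.0267), and both lie between TNFSF14 and GPR108. LOC111773191, a long non-coding RNA within 2 genes of IL6, rose by 3.52 (limma adjusted p = 0.0224), with 58.2, 110 and 86.3 in control and 786, 1279 and 859 with the antagonist. The DE genes not yet named, GPAM, KLF15, SP6, PTPRU, C26H21orf2, MED12L, LOC111772685, LOC111771193 and LOC102148954, are given to complete the 42 and rose by between 1.56 (LOC102148954) and 6.30 (LOC111772685). GPAM starts triglyceride synthesis and KLF15 and SP6 are transcription factors, and they rose by 2.76, 2.67 and 2.49.

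The 7 DE genes that fell were PRG4, ABLIM1, PODXL, KCNE3, MYOM3, MRVI1 and SMC4. PRG4, the lubricant of joint and tendon surfaces, had 417, 3575 and 439 normalised counts in control, 55, 37.6 and 3.2 with IL-1β + IL1Ra and 11.3, 25.4 and 3.19 with IL-1β alone. It stood at about the level of IL-1β alone in lines 2 and 3 and changed by a log2-fold change of −5.38 (SE 0.70, limma adjusted p = 0.0456) beside −6.30. ABLIM1, which links actin to LIM proteins, had 242, 119 and 228 in control and 28.2, 0.873 and 2.91 with the antagonist (−4.98, SE 0.63, limma adjusted p = 0.0401). PODXL, a sialomucin of cell surfaces, had 625, 1519 and 395 in control and 117, 114 and 21.4 with the antagonist (−3.42, SE 0.41, limma adjusted p = 0.0313), beside −5.07 for IL-1β alone. MRVI1, an effector of nitric oxide signalling in smooth muscle, had 932, 1841 and 1357 in control and 371, 327 and 330 with the antagonist, a change of −1.95 (limma adjusted p = 0.0366). SMC4, a condensin subunit that compacts mitotic chromosomes, had 4007, 2629 and 2407 in control and 1080, 954 and 957 with the antagonist, a change of −1.56 (SE 0.18, limma adjusted p = 0.0267) beside −1.97. KCNE3, a potassium channel subunit, and MYOM3, a sarcomere protein, changed by −2.94 and −2.69 (limma adjusted p = 0.0498 and 0.0267), and in both the control and treated ranges overlapped because the lines differed in level. The bulk RNA of a gel cannot tell fewer cells of a kind from less RNA per cell.

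Among matrix genes PRG4 was the only DE gene of the lists below, and 4 of 11 small leucine-rich proteoglycans, 6 of 22 glycoproteins and 3 of 21 collagens stood above control. Of 11 small leucine-rich proteoglycans, which bind collagen fibrils and set their spacing, 0 were DE and 5 were lower at an unadjusted p under 0.05, with a list median of −1.08 and within-line medians of −0.15, −1.11 and −1.90. ASPN, asporin, had 35912, 1587 and 813 normalised counts in control, 27871, 8.65 and 19.6 with IL-1β + IL1Ra and 2658, 2.32 and 5.49 with IL-1β alone. OGN, osteoglycin, had 6602, 464 and 250 in control and 5944, 4.80 and 47.8 with the antagonist. Both genes were thus near control in line 1 and far below it in lines 2 and 3, and with these wide errors neither was DE (ASPN −4.34, SE 1.13, limma adjusted p = 0.189, and OGN −2.95, SE 0.97, adjusted p = 0.260). Of 22 tested matrix glycoproteins and large proteoglycans 1 was DE (PRG4), 1 was higher and 10 were lower at an unadjusted p under 0.05, and the median was −1.11. FBLN1, fibulin 1, chosen after its values were seen, had 19367, 8253 and 24060 in control and 24454, 282 and 1327 with the antagonist, and so was above control in line 1 and below it in the others (−2.90, SE 0.96, limma adjusted p = 0.260). Collagens were nearer to control, with 0 DE and 5 lower at an unadjusted p under 0.05 among 21 and a median of −0.75. COL15A1, a collagen of basement membrane zones, had 33208, 48247 and 63445 in control and 9868, 21768 and 27826 with the antagonist (−1.36, SE 0.28, limma adjusted p = 0.137), beside −2.53 for IL-1β alone. The collagen median moved to −0.26 without line 2, and that of the matrix glycoproteins to −0.42. The counts at an unadjusted p under 0.05 moved too. Without the block 0 small leucine-rich proteoglycans, 2 glycoproteins and 2 collagens were lower at that level. These counts were 5, 12 and 6 without line 1, 1, 3 and 2 without line 2, and 1, 8 and 5 without line 3.

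Tendon transcription factors and markers had a median of −0.57 over 15 tested genes, beside −1.73 with IL-1β alone, and none was DE. SCX, scleraxis, the transcription factor that marks tendon progenitors, had 4720, 266 and 105 normalised counts in control, 1523, 30.2 and 10.5 with IL-1β + IL1Ra and 278, 43.5 and 13.6 with IL-1β alone. SCX was above its IL-1β level in line 1 only (−2.65, SE 0.55, limma adjusted p = 0.134). COMP, the cartilage oligomeric matrix protein of tendon, was also nearest to control in line 1, with 51392, 1069 and 131 in control and 33101, 96.7 and 7.33 with the antagonist (−2.69, SE 0.64, limma adjusted p = 0.159). SOX9, a regulator of cartilage matrix, had 1056, 746 and 376 in control, 563, 224 and 85.3 with the antagonist and 99.8, 154 and 34.2 without it, and so was higher with the antagonist in every line (−1.59 against control, SE 0.37, limma adjusted p = 0.159, beside −3.03). TNC, tenascin C, was at 38252, 24317 and 49157 with the antagonist against 56084, 71309 and 39094 in control (−0.59, SE 0.40), whereas IL-1β alone gave 13266, 7261 and 15121. EYA1, a transcriptional coactivator, was the list member that was higher with the lowest p (1.83, SE 0.35, limma adjusted p = 0.118). Among 27 contraction and integrin genes 0 were DE, 10 were lower and 1 higher at an unadjusted p under 0.05. The median was −0.70, beside −0.64 with IL-1β alone. Without line 2 the median with the antagonist was −0.33 and 5 genes were lower at an unadjusted p under 0.05. VCL, vinculin, which couples actin to integrins, had 15150, 16605 and 14026 in control and 10170, 6647 and 9410 with the antagonist (−0.82, SE 0.21, limma adjusted p = 0.177). ITGB8, an integrin that activates TGF-β, was the member that was higher, at 926, 2028 and 2239 against 219, 223 and 315 (2.69, SE 0.42, limma adjusted p = 0.0667). Of 4 pericyte and smooth muscle markers 2 were lower at an unadjusted p under 0.05 (MYH11 and DES), and their summed level ran from 1016 to 3213 in control and from 395 to 666 with the antagonist.

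Genes of cell division were lower throughout. All 24 mitosis genes were lower with IL-1β + IL1Ra than in control, 23 of them at an unadjusted p under 0.05, and in 23 every treated library lay below every control library (5.96% of all genes tested). None was DE, the median log2-fold change was −2.27, and with IL-1β alone it was −2.26. KIF11, a spindle motor, had 2401, 1376 and 964 normalised counts in control, 159, 448 and 370 with IL-1β + IL1Ra and 113, 746 and 214 with IL-1β alone. MKI67, the proliferation marker Ki-67, chosen after its values were seen, had 1994, 1242 and 1251 in control and 73.8, 405 and 455 with the antagonist. In both genes line 1 had the highest control and the lowest treated value (KIF11 −2.30, SE 0.61, limma adjusted p = 0.190, and MKI67 −2.60, SE 0.72, adjusted p = 0.204). The within-line medians of the list were −4.00, −1.61 and −1.26 with the antagonist and −4.69, −0.25 and −1.98 with IL-1β alone, so that in line 2 the mitosis genes were near control with IL-1β alone and below it with IL-1β + IL1Ra. All 24 DNA replication genes were also lower, 21 at an unadjusted p under 0.05, with a median of −1.47 and 0 DE. MCM2, a subunit of the replicative helicase, had 1921, 1803 and 1028 in control and 335, 601 and 411 with the antagonist (−1.81, SE 0.41, limma adjusted p = 0.155). Without line 1 the medians were −1.39 for mitosis and −0.94 for replication, and 15 genes of each list kept an unadjusted p under 0.05.

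**Figure D3:**
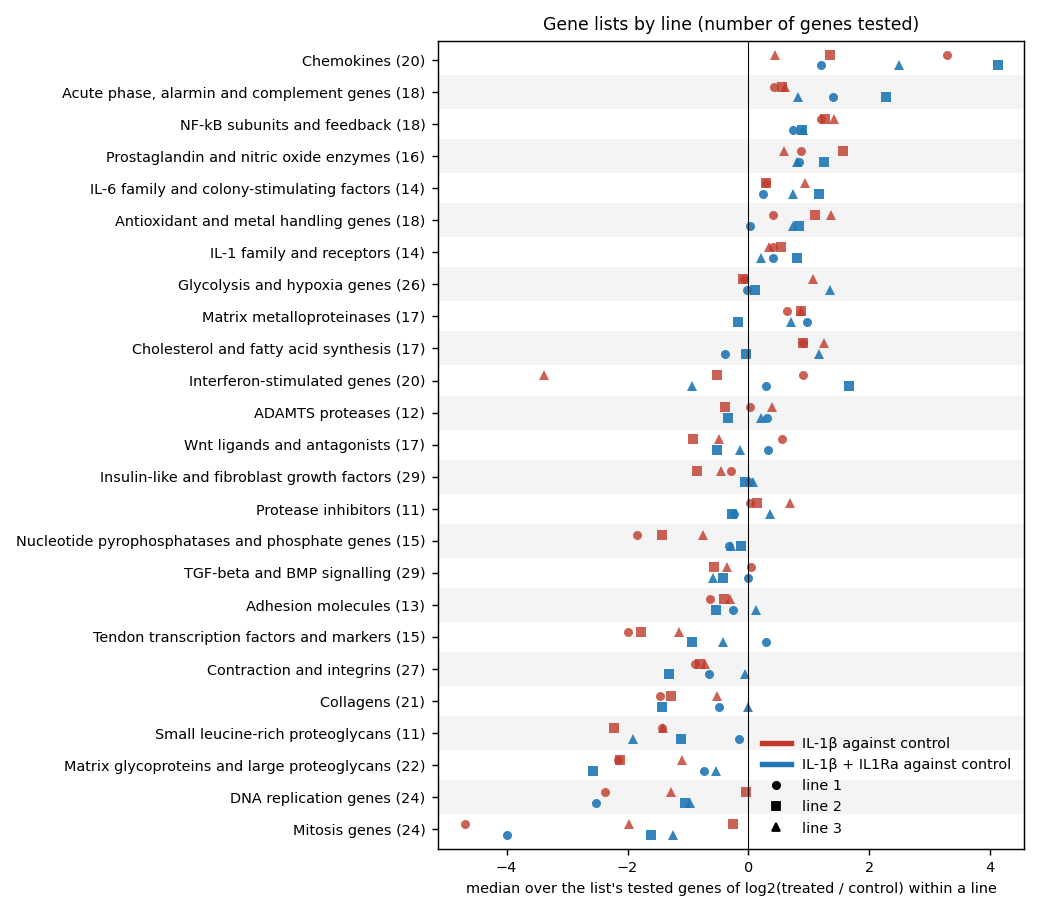
Each symbol is the median over a gene list's tested genes of the log2 ratio to control within 1 line (horizontal axis, lists on the vertical axis with the number of genes tested), in red for IL-1β alone and in blue for IL-1β + IL1Ra. With the antagonist the chemokine medians run from 1.21 to 4.12 and the mitosis medians from −4.00 to −1.26, while the small leucine-rich proteoglycans run from −0.15 in line 1 to −1.90 in line 3.

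**Figure D4:**
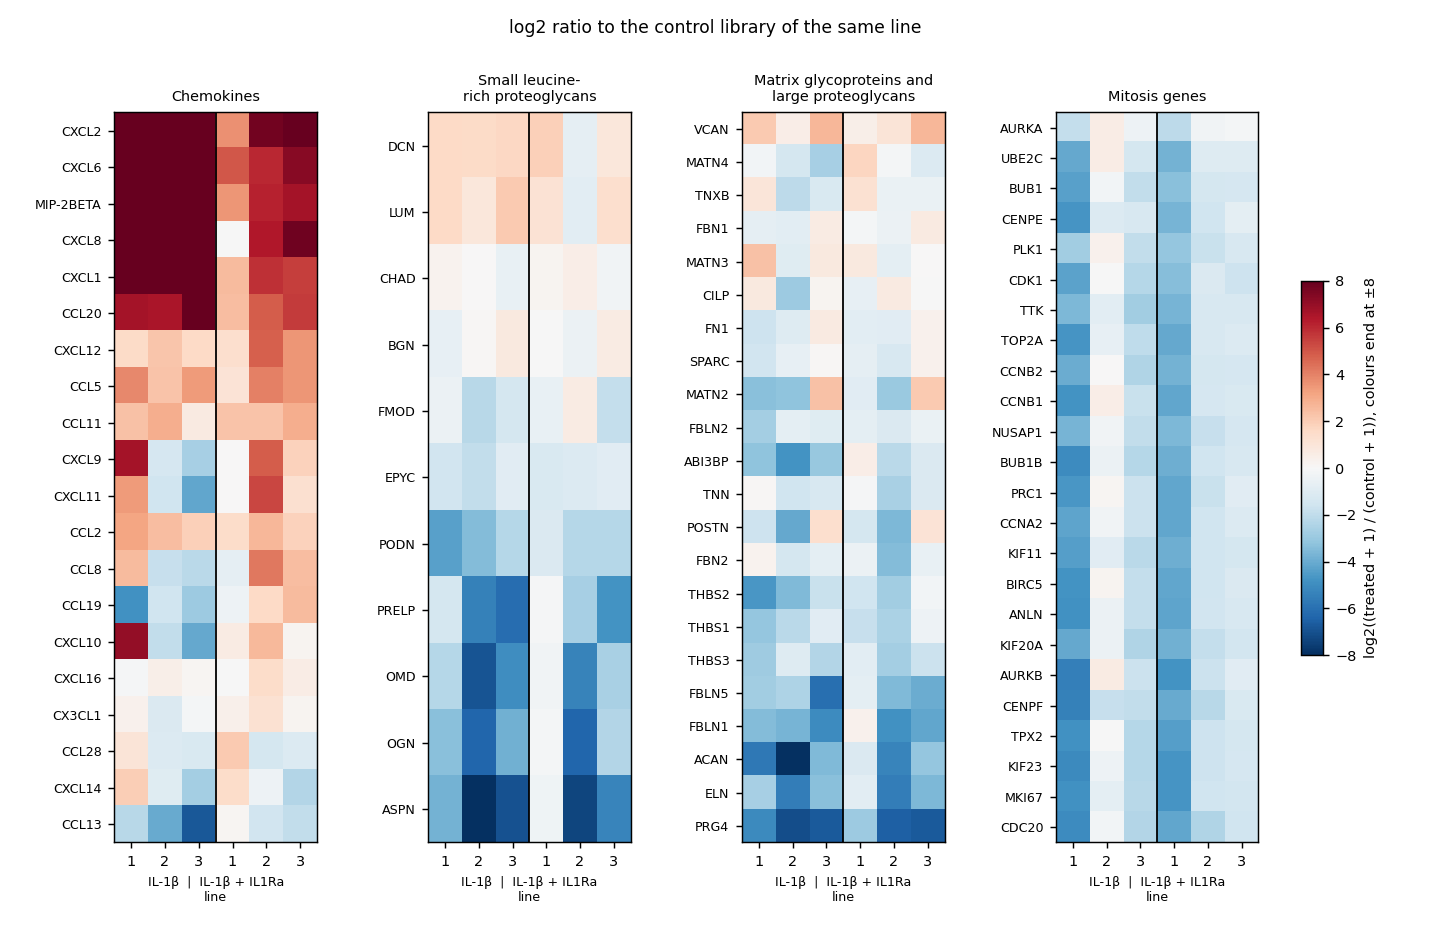
Colours give the log2 ratio of a treated library to the control library of its line for 4 gene lists, with the 3 IL-1β columns left and the 3 IL-1β + IL1Ra columns right of the black line in each panel and genes ordered by the change with the antagonist. CXCL8 has a ratio near 0 in line 1 with the antagonist, ASPN and OGN are pale in line 1 and blue in lines 2 and 3, and all 24 mitosis genes average below 0.

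Set directly against IL-1β alone, IL-1β + IL1Ra gave 1 DE gene (0.00599%), FGF10, and 1400 genes with an unadjusted p under 0.05 (8.38%). FGF10, a growth factor made by mesenchymal cells for neighbouring epithelium, had 1063, 7002 and 7961 normalised counts in control, 595, 2867 and 2852 with IL-1β + IL1Ra and 114, 559 and 496 with IL-1β alone. It was intermediate in all lines, 2.42 above IL-1β alone (SE 0.18, limma adjusted p = 0.0336) and −1.20 from control (SE 0.18, adjusted p = 0.0615). Leaving out line 2 or line 3 gave 0 DE genes here (903 and 659 at an unadjusted p under 0.05), and leaving out line 1 gave 100. MST1R, a receptor tyrosine kinase, had 177, 397 and 371 in control, 345, 439 and 382 with the antagonist and 45.1, 48.8 and 58.9 with IL-1β alone (0.38 against control, SE 0.27). MST1R thus stood above control in each line with the antagonist. ENPP1, which makes the pyrophosphate that holds back mineral, had 3419, 2729 and 1011 in control, 2744, 1418 and 1344 with the antagonist and 536, 223 and 245 with IL-1β alone, 2.49 above IL-1β alone (SE 0.29, limma adjusted p = 0.0978) and −0.28 from control (SE 0.29). ENPP5 differed from IL-1β alone by 2.10 and from control by 0.23. ENPP2, which makes lysophosphatidic acid, had 6.20, 26.3 and 35.0 in control, 14.1, 7.03 and 22.2 with the antagonist and 179, 14.5 and 476 with IL-1β alone. It differed from IL-1β alone by −2.96 (SE 0.96, limma adjusted p = 0.456) and from control by −0.44 (SE 0.96). With IL-1β alone ENPP2 lay below control in line 2 and was not DE (limma adjusted p = 0.181). MEOX1, a homeobox factor of somites, and TGM2, a protein-crosslinking transglutaminase, had log2-fold changes of −0.11 and −0.16 against control beside −3.48 and −4.66 with IL-1β alone. The direction against control of ENPP1, ENPP2, ENPP5 and MEOX1 turned without line 2 and that of TGM2 without line 1. ABI3BP, a matrix protein, had 3613, 5303 and 4886 in control, 5280, 1164 and 2164 with the antagonist and 384, 188 and 594 with IL-1β alone. It was intermediate in lines 2 and 3 and above control in line 1 (−0.94, SE 0.49). Among genes lower than with IL-1β alone, A2ML1, a protease inhibitor, lay at 156, 8.79 and 18.3 with the antagonist and 2777, 562 and 261 without it, against 49.3, 1.8 and 3.45 in control, which is −4.58 from IL-1β alone (SE 0.46, limma adjusted p = 0.0699). CYP1A1, a target of the aryl hydrocarbon receptor, ENOX1, an oxidase of the cell surface, and PARM1 stood −4.06, −2.19 and −3.42 from IL-1β alone, and 1.02, 0.59 and −1.72 from control. GPR84, a receptor for fatty acids on inflamed cells, and GLCCI1 were DE with IL-1β alone (7.42 and 2.68) and short of it with the antagonist (4.23 and 1.42, limma adjusted p = 0.0666 and 0.0981). Of the 35 DE genes that rose against control, 27 had a mean log2 value nearer to control than with IL-1β alone, and of the 7 that fell 4 did. None of the 42 differed between the treated conditions at an adjusted p under 0.05 (limma), and 20 did at an unadjusted p under 0.05. These comparisons share the IL-1β + IL1Ra libraries, so the counts describe the genes and test nothing further.

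Besides CHI3L1, some complement and receptor genes had their highest values with the antagonist. C1R, a protease of the classical complement pathway, had 2704, 3826 and 6754 normalised counts in control, 6853, 25599 and 13768 with IL-1β + IL1Ra and 1907, 2309 and 1460 with IL-1β alone. CFB, complement factor B, had 204, 37.7 and 85.2 in control, 1849, 1195 and 845 with the antagonist and 187, 258 and 465 with IL-1β alone. OSMR, the oncostatin M receptor, had 3519, 1755 and 2533 in control, 6336, 4871 and 3607 with the antagonist and 2939, 1517 and 1872 with IL-1β alone. In these genes each antagonist library was the highest of its line. The log2-fold changes against control were 1.70 (SE 0.41) for C1R, 3.81 (0.57) for CFB and 0.94 (0.20) for OSMR, with limma adjusted p of 0.161, 0.0605 and 0.140, so none was DE. Against IL-1β alone they were 2.85, 2.12 and 1.25. C1R, CFB and OSMR were chosen after their values were seen. VEGFA, the main angiogenic factor, had 10242, 16871 and 14740 in control, 21497, 38284 and 47582 with the antagonist and 17953, 19255 and 25918 with IL-1β alone (1.31 against control, SE 0.25, limma adjusted p = 0.118).

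The first sequencing batch holds 5 other tenocyte lines with and without 1 nM IL-1β, in a table of its own, and offers a response to IL-1β measured in other libraries. In it 2386 genes were DE of 14719 tested (16.2%), 883 higher (6%) and 1503 lower (10.2%). Of the 35 DE genes that rose with IL-1β + IL1Ra, 34 were tested there and all 34 were DE and higher. This is 97.1% of the 35 and 3.94% of the 863 genes that were raised in the first batch and tested in both. Of the 7 that fell, 6 were DE and lower there (85.7% of the 7, 0.415% of 1445), and the exception was KCNE3, at −0.33. AOAH was the gene not tested there. Read the other way, 451 of the 863 genes raised in the first batch (52.3%) were higher with IL-1β + IL1Ra at an unadjusted p under 0.05, and 558 of the 1445 lowered ones (38.6%) were lower. The raised genes had within-line medians of 0.67, 1.22 and 1.00 with the antagonist and 1.61, 1.55 and 1.33 with IL-1β alone. The lowered genes had medians of −0.41, −1.29 and −0.73 with the antagonist and −1.51, −1.32 and −1.17 with IL-1β alone. By this measure line 1 lay nearest to control with the antagonist in both directions, and in line 2 the lowered genes lay about as low with the antagonist as without it.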

How the data were processed

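RNA of equine tenocytes in 3D collagen gels was sequenced by the authors as paired ends on a NovaSeq, with a stranded mRNA kit per the labels. The authors quantified EquCab3.0 transcripts by Salmon pseudoalignment, imported gene totals with tximport into R 4.2.1 and scaled them in DESeq2 1.36. The signal values deposited by the authors are therefore counts per gene divided by the size factor of a library, 1 table for each batch. Whole reads could not be recovered, so no count model was fitted. No column was left without a sample, and no 2 libraries held identical values.

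Computed here: log2(normalised count + 1), filtered at 10 normalised counts in 3 libraries (5 in the first batch), fitted with limma 3.58.1 (lmFit, then eBayes with a mean-variance trend, R 4.3.3) to the 9 second-batch libraries, the line being a block, two-sided, with Benjamini-Hochberg adjustment over all genes tested. Libraries of a line come from 1 donor horse. As a check of the pairing, deviations from the condition means correlated at 0.535 to 0.794 in 9 same-line pairs and at −0.625 to 0.249 in 18 others. A gene's deviations within a condition cancel out over the lines. Low values in the other pairs therefore follow from high same-line values and are no separate check. The fit was tested on simulated data for IL-1β + IL1Ra against control: of 200 genes changed by 2 on the log2 scale among 16705, 71.5% were recovered with the block and 52.5% without. False calls numbered 6 with the block and 1 without. The changed genes had a mean log2 value above 5 and were shifted alike in every line. These shares therefore do not describe genes whose response differed between lines, such as ASPN.

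The comparison, its members and the gene lists were chosen with earlier results of these data known. Genes named in the text come from the top 15 rises and top 10 falls of DE genes with symbols, the DE or up to 4 lowest-p members of each list, the genes the paper names for its IL1Ra comparison, the IL-1 receptor and antagonist genes, and the 5 lowest adjusted p in each direction against IL-1β alone. Others are named as chosen after their values were seen. Names were matched to RefSeq for 85.9% of genes, against a newer assembly, so no coordinates or sequences are given. Alternatives were no block, other pseudocounts, filters and scalings, no trend, fits to 2 conditions and leaving out each line. Those for the first batch were added after seeing the data.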

Additional observations from a re-analysis of the deposited data

How the results depend on the processing

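The number of DE genes between IL-1β + IL1Ra and control was 42. It stayed within 31 to 50 under pseudocounts of 0.5 and 5, filters of any value above 0 and of at least 50 in 3 libraries, TMM rescaling, quantile normalisation and the adjusted p alone. It was 2 without the replicate block, 2 without the trend and 9 with only the 2 conditions fitted, and leaving out 1 line gave 0 to 414 genes. The fits with fewer libraries have fewer residual degrees of freedom, as few without line 1 (414 genes) as without line 2 or line 3 (0 genes). The cause of the differences between these fits was not tested. All 42 genes kept their direction in each of these fits, except that 1 was not measured at the filter of 50. The fits without the block, without the trend or with only the 2 conditions leave the log2-fold changes as they are. Leaving out 1 line could not turn a gene that moved the same way in every line. Without the block, that is without the pairing by line, 38 of the 42 kept an unadjusted p under 0.05 (limma).

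For IL-1β alone against control the 865 DE genes became 57 without the block, 558 without the trend and 373 with only the 2 conditions, and 0 to 1236 when 1 line was left out (2963 genes at an unadjusted p under 0.05 where limma gave 0). For IL-1β + IL1Ra against IL-1β the 1 DE gene became 2 at a pseudocount of 5 and 0 without the block, with quantile normalisation, without the trend and with only the 2 conditions (464, 1398, 1382 and 1565 genes at an unadjusted p under 0.05 in limma), and 0 to 100 when 1 line was left out. Leaving out 1 line took the log2-fold change against control from −0.63 to 0.047 for ENPP1, from −1.20 to 0.22 for ENPP2, from −0.18 to 0.43 for ENPP5, from −0.31 to 0.28 for MEOX1 and from −0.42 to 0.12 for TGM2, all not DE. In the first batch the adjusted p alone gave 6363 genes against 2386.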

Other observations

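The lists that carried no DE gene beyond those already described differed in how far the lines agreed. Of 20 interferon-stimulated genes, which mark an antiviral response, 0 had an unadjusted p under 0.05 with limma and 0 were DE, and the within-line medians against control were 0.29, 1.66 and −0.93 with IL-1β + IL1Ra and 0.91, −0.52 and −3.37 with IL-1β alone. IRF7, a transcription factor that amplifies interferon, had 105, 2229 and 5310 normalised counts in control, 210, 7819 and 2794 with the antagonist and 364, 1185 and 251 with IL-1β alone. The 3 control libraries thus spanned a wider ratio than the treated and control libraries of any line. Of 26 glycolysis and hypoxia genes 1 was DE (CA12), and the within-line medians were −0.02, 0.10 and 1.4. At an unadjusted p under 0.05, 6 were higher and 1 lower, beside 6.42% and 6.95% of all genes tested. Of 17 genes of cholesterol and fatty acid synthesis 2 were higher at that level, INSIG1 and SCD, beside 6.42% of all genes tested. The list median was 0.28 (0.63 without line 1 and −0.19 without line 3) beside 0.96 for IL-1β alone. INSIG1, which holds back sterol synthesis, had 2087, 2194 and 2563 in control and 3674, 5537 and 6920 with the antagonist (1.19, standard error 0.18, limma adjusted p = 0.0636).

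The growth and patterning lists held genes on both sides at an unadjusted p under 0.05, beside 6.42% higher and 6.95% lower over all genes tested. Of 29 TGF-β and BMP genes 2 were higher and 4 lower at an unadjusted p under 0.05, with a median of −0.34. GREM1, a secreted BMP antagonist, had 15097, 7574 and 3649 normalised counts in control and 3833, 2784 and 2537 with IL-1β + IL1Ra (−1.32, standard error 0.30, limma adjusted p = 0.154), and BMP2 had 227, 146 and 568 against 321, 529 and 1336 (1.19, standard error 0.29, limma adjusted p = 0.168). Of 17 Wnt genes 1 was higher (WNT2, 2.62) and 4 were lower, among them DKK1, an inhibitor of Wnt signalling, at 409, 566 and 651 in control and 225, 2.99 and 65.4 with the antagonist (−3.77, standard error 1.04, limma adjusted p = 0.201). Of 29 insulin-like and fibroblast growth factor genes 6 were higher and 5 lower, with a median of 0.07 (−0.21 without line 1). Without the block 1 was higher and 0 were lower with limma. Of 15 nucleotide pyrophosphatase and phosphate genes 1 was higher (ALPL, 1.12) and 3 were lower, and the median of −0.28 (−0.058 without line 1) compares with −1.53 for IL-1β alone. MGP, an inhibitor of calcification, was among the lower ones at 26188, 4568 and 7265 in control and 15887, 221 and 640 with the antagonist (−2.86, standard error 0.74, limma adjusted p = 0.188). Of 13 adhesion molecules 1 was DE (PODXL), 3 were higher and 5 lower at an unadjusted p under 0.05. None of these genes other than CA12 and PODXL was DE.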
